A study of Homo sapiens with 58 samples.

Results

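The 2015 peaks described here are lone 3'UTR peaks: each is the only peak annotated to the 3' untranslated region (3'UTR) of its gene in a table of 387214 HuR binding peaks. They were found by dropping 8257 repeated lines of the table and keeping every 3'UTR peak whose gene name occurred once among the 37614 3'UTR peaks, of which 54 had no gene name. Of the 7619 genes with a named 3'UTR peak, 26.4% had exactly 1. Each peak is 20 nt long. The members were chosen by the number of 3'UTR peaks called in their gene, which can depend on how many tags (sequenced fragments) the gene collected over all libraries, so their levels are given as a description, without a test. The rule does not use any contrast between compartments or treatments.

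HuR, encoded by ELAVL1, is an RNA-binding protein of the ELAV family that recognises U-rich and AU-rich stretches, most often in introns and in 3'UTRs. It resides mainly in the nucleus, shuttles to the cytoplasm, and is known there for stabilising mRNAs and shaping their translation. Sodium arsenite is an oxidative stressor that blocks translation initiation and drives mRNAs and RNA-binding proteins, G3BP1 among them, into stress granules.

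HuR-bound RNA was measured by CLIP-seq (crosslinking with ultraviolet light, immunoprecipitation with the 3A2 antibody and sequencing) in 58 libraries of Huh-7.5, a human hepatocellular carcinoma line. Cells were mock treated or stressed with 0.5 mM sodium arsenite for 45 min, and all were crosslinked at 400 and then 200 mJ/cm2. The 12 fraction libraries came from cells labelled wild type, without a peroxidase reaction, split into a nuclear and a cytoplasmic fraction, with 3 libraries for each fraction and treatment. The other 46 came from lines labelled APEX-NLS, APEX-NES or APEX-G3BP1, in which an engineered ascorbate peroxidase sits in the nucleus, in the cytoplasm or on the stress granule protein G3BP1. These lines were given biotin phenol for 30 min and hydrogen peroxide for 1 min in mock and arsenite cells alike, and each group of the lines consists of input libraries or of libraries with an added streptavidin capture, called enriched. The promoter that drives the peroxidase and the number of clones per line are not given in the sources used here.

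Each of the 12 fraction libraries had between 235471 and 673322 tags in peaks, and 1254 to 6294 of them lay in lone 3'UTR peaks. The 17 input libraries held 15 to 3349 tags in lone peaks and the 29 enriched libraries 6 to 955, and 15 enriched and 5 input libraries held fewer than 100. Tags reflect the amount of an RNA and its binding by HuR together, which cannot be told apart here. Nothing in the labels says that replicates were separate cultures, so p-values measure the spread between these libraries, which may be technical. The fraction libraries are all of library set JL0380, and no other library is, so set and fractionation cannot be told apart. Of the 17 hepatocyte markers, 14 had tags in the fraction libraries, and APOA1, APOC3 and TTR had none. The hepatocyte markers summed to 842 to 2970 CPM per library (tags per 1000000 of the library total), and those of fibroblasts (1 of 5 with tags) and endothelium (2 of 4) to at most 1.60 and 1.73 CPM, with COL1A1, COL1A2, DCN, THY1, CDH5 and KDR at 0.

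For 3 members the 20 bases could be read, because they lie inside the RefSeq promoter windows (GRCh38.p14) of neighbouring genes, and they are shown as examples of what such a peak covers. Capitals mark runs of at least 4 T (U in the RNA), the simplest form of the U-rich stretch HuR is known to prefer. The table does not say whether its starts count from 0 or 1, and the bases were read from the start plus 1 to the end.
SEC24C, chr10:73772110-73772129, plus strand: aTTTTTcaatgcatctttaa
MSH5, chr6:31762660-31762679, plus strand: agtttaTTTTgaagaaagat
AMDHD2, chr16:2531372-2531391, plus strand: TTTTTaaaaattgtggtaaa
TTTT, searched on the transcript strand, occurred in all 3 of these peaks. It occurred in 6.44% of 526740 windows of 20 nt cut from all RefSeq promoters on the strand of their gene, which are not 3'UTRs. The 3 are a by-product of where promoter windows fall and not a sample of the members.

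The MSH5 peak (a meiotic mismatch repair protein) had 27 tags in all, with 1.93 to 4.37 CPM in the 3 nuclear mock libraries and 0 to 1.06 CPM in the cytoplasmic ones. The SEC24C peak (a cargo adaptor of COPII vesicles) had 23 tags, with 1.60 to 3.20 CPM in the nuclear arsenite libraries and 0 in all 3 cytoplasmic arsenite libraries, where 3 tags per library would correspond to 1.99 CPM on average. The AMDHD2 peak (an enzyme of amino sugar metabolism) had 6 tags in 6 of 58 libraries. None of these passed a test: the nuclear against cytoplasmic log2 difference was 0.82 ± 0.32 (SE) for MSH5 in mock cells (limma adjusted p = 0.169) and 1.04 ± 0.27 for SEC24C in arsenite cells (limma adjusted p = 0.175).

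Most lone peaks were small. They held 69255 tags, 0.878% of all tags in peaks and 3.69% of those in 3'UTR peaks. The median peak had 10 tags over the 58 libraries (quartiles 7 and 20), 225 peaks had the lowest total of 5, and 92 had more than 100. Just outside the rule, the 2260 peaks of genes with 2 3'UTR peaks had a median of 11 tags (quartiles 7 and 22). Peaks of genes with 3 or more had a median of 17. Measured to the end of the RefSeq gene on GRCh38.p14, the middle of the lone peak lay at a median of 589 nt for the 2005 members whose symbol and chromosome matched, against 814.5 nt for genes with 2 peaks and 2025 nt for genes with more. Within 500 nt of that end were 44.9% of the matched lone peaks, 38.2% of the peaks of genes with 2 and 15.8% of the others. The median gene with a lone peak was 26987 nt long, and the median gene of the peaks of genes with 2 was 34727 nt.

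The annotation of 1032 members named the 3'UTR alone, and that of 867 also named an intron of another transcript. The genes were not bare of other binding: 1358 of the 2015 also had intron peaks, 18399 of them, and 561 had no other peak of any class. In the fraction libraries 1966 members had at least 1 tag and 104 had a tag in all 12. The 20 members with the most tags there held 39.0% of the fraction tags in lone peaks.

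Among the gene families counted, the cytosolic ribosomal proteins were most often limited to 1 3'UTR peak. Of 51 such genes with a 3'UTR peak, 30 (58.8%) had a lone one. The share was 42.6% for oxidative phosphorylation genes (20 of 47), 41.2% for integrated stress response genes (7 of 17, among them PPP1R15A, DDIT4 and GADD45B) and 40.9% for hepatocyte plasma proteins (9 of 22, among them APOE, F2 and SERPINC1). It was 8.57% for mRNAs known as HuR targets (3 of 35: CCNE1, IER3 and MYB) and 5.41% for stress granule proteins (2 of 37), against 26.4% of all genes with a named 3'UTR peak.

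Among the fraction libraries, lone 3'UTR peaks took their largest share of the tags in peaks in the cytoplasm of mock cells. It was 1.45%, 1.68% and 1.72% in the 3 cytoplasmic mock libraries and 0.533%, 0.534% and 0.496% in the nuclear mock libraries. After arsenite it was 0.873%, 0.907% and 0.843% in the cytoplasm and 0.801%, 0.721% and 0.740% in the nucleus. The cytoplasmic mock libraries thus stood above all others, and the groups did not overlap in any of these pairs. The mean cytoplasmic share was 3.10 times the nuclear one in mock cells (1.61% ± 0.146 and 0.521% ± 0.0217, SD, n = 3 each) and 1.16 times in arsenite cells (0.874% ± 0.0323 and 0.754% ± 0.0418, SD, n = 3 each). Because the members are a chosen list, these shares are a description and carry no test. Set against the tags in 3'UTR peaks alone, the order differed: lone peaks held 4.43% to 4.46% of those tags in nuclear mock, 3.71% to 3.91% in cytoplasmic mock, 3.85% to 4.06% in nuclear arsenite and 3.53% to 3.59% in cytoplasmic arsenite libraries.

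Markers moved with these groups. The nuclear RNAs MALAT1 and NEAT1 summed to 2788 to 3124 CPM in nuclear and 2265 to 2829 CPM in cytoplasmic mock libraries, and to 3028 to 3879 and 2603 to 3584 CPM after arsenite, so the fractions overlapped in tags of these RNAs under both treatments. Of 5 leukocyte markers 2 had tags, with CD3E and CD14 among those at 0, and the sum was 17.3 to 21.1 CPM in cytoplasmic mock libraries, 4.83 to 8.18 in nuclear mock, 2.40 to 4.004 in nuclear arsenite and 5.56 to 7.39 in cytoplasmic arsenite libraries. Hepatocyte markers ran in the same order between fractions, with 2192 to 2970 CPM in cytoplasmic and 1255 to 1338 CPM in nuclear mock libraries. After arsenite they were lower in both fractions, with 1160 to 1315 CPM in cytoplasmic and 842 to 916 CPM in nuclear libraries. The part of these markers in the results below was not tested.

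In the peroxidase lines the NLS enriched libraries had the lowest median lone share, and the share reached its highest values in G3BP enriched arsenite libraries. The NLS enriched libraries lay between 0.267% and 0.551% in mock cells (median 0.376%) and between 0.326% and 0.655% after arsenite (median 0.435%). The NES enriched libraries spread from 0.259% to 0.915% in mock cells and from 0.433% to 1.07% after arsenite, and library set JL1024 was below JL0388 under both treatments. The G3BP enriched libraries had 0.874% to 1.54% (median 0.895%) in mock cells and 0.891% to 1.93% (median 1.59%) after arsenite. Within JL0388 these G3BP values were 0.874% and 0.884% in mock cells and 1.53% and 1.59% after arsenite, whereas the mock and arsenite values overlapped within JL0361 and within JL1024. The inputs spanned 0.511% to 1.31%.

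**Figure D1:**
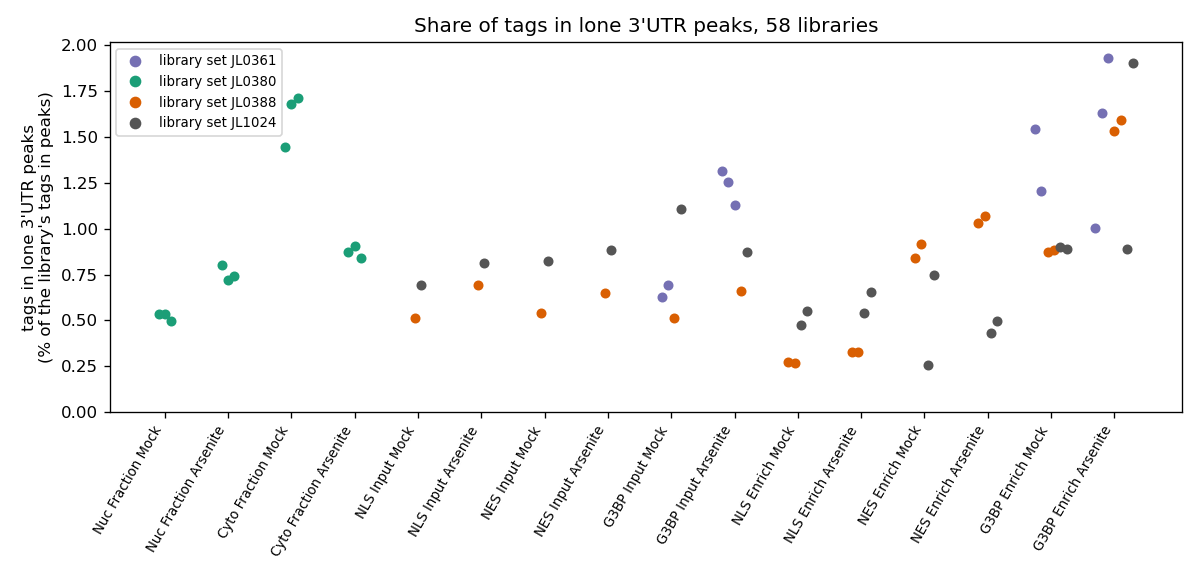
Tags in lone 3'UTR peaks as a percentage of each library's tags in peaks (vertical axis) for the 16 groups (horizontal axis), 1 point per library, coloured by library set. The cytoplasmic mock fraction libraries (1.45% to 1.72%) stand above the other fraction groups, and the enriched libraries spread more widely.

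The comparison of the nuclear with the cytoplasmic fraction asks in which fraction a peak took the larger part of a library's tags. Values are relative to each library's total, so absolute amounts cannot be compared. In mock cells the lone peaks lay mainly to the cytoplasmic side: 80 of 851 tested lone peaks were lower and 5 higher in the nuclear fraction (limma, adjusted p under 0.05 over all peaks of the table). Of all 157168 peaks tested, 2.82% were called, 2.29% lower and 0.53% higher. The median log2 difference was -0.45 over lone peaks and 0.15 over all peaks tested, and 80.5% of the tested lone peaks were negative. The size of these medians depends on the processing: they were -1.28 and 0.50 with edgeR, -0.94 and 0.33 with a pseudocount 4 times smaller, and -0.15 and 0.04 with one 4 times larger. The called share of 9.99% stood beside 10.9% for the 3'UTR peaks of genes with 2 and 13.4% for those of genes with 3 or more. The count was 98 without nuclear mock library 1, where 27 of the calls were higher and the calls over all peaks went from 4437 to 16620. It fell to 14 without nuclear mock library 2, 21 without nuclear library 3, 17 without cytoplasmic library 1 and 4 without cytoplasmic library 3, and to 0 without cytoplasmic library 2 (limma, 373 at an unadjusted p under 0.05; edgeR on all libraries called 94, and 4400 of all peaks).

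On the scale of log2(value + pseudocount), by which peaks were ordered, the 3 largest cytoplasmic differences were at CKB, SNRPF and SH2D4A. Here and within arsenite or fraction below, the largest differences were taken from called peaks without overlap. Their lack of overlap therefore follows from the choice. The CKB peak (brain-type creatine kinase, which buffers ATP; ENSG00000166165, chromosome 14, 103519694 to 103519714) had 20.4, 29.1 and 20.3 CPM in the nuclear and 194, 243 and 292 CPM in the cytoplasmic mock libraries. Every cytoplasmic value was far above every nuclear one, by 10.4 times in the means, with a log2 difference of -3.26 ± 0.22 (SE) on log2(value + pseudocount of 2.28 CPM; limma adjusted p = 0.000128). That scale understates the change of low peaks.

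The SNRPF peak (an Sm core protein of spliceosomal snRNPs; ENSG00000139343, chromosome 12, 95866092 to 95866112) had 0, 1.82 and 1.93 CPM in the nuclear and 24.5, 32.6 and 33.7 CPM in the cytoplasmic libraries. The difference was -3.24 ± 0.33 (limma adjusted p = 0.00116). The SH2D4A peak (an SH2 domain adaptor; ENSG00000104611, chromosome 8, 19395362 to 19395382) had 1.46, 0.909 and 0.966 CPM in the nuclear and 17.02, 28.5 and 40.1 CPM in the cytoplasmic libraries. Its nuclear value rests on 3 tags, and the ratio of the pooled counts was 26.9 (exact 95% interval 8.88 to 133, counting error only) with a log2 difference of -3.11 ± 0.34 (limma adjusted p = 0.00158).

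The next 5 were POGLUT1 (an O-glucosyltransferase of Notch), ALYREF (an mRNA export adaptor), MIX23 (a mitochondrial protein), KLHDC7A (a kelch domain protein) and SOX12 (a transcription factor). Their log2 differences were -2.86, -2.85, -2.75, -2.73 and -2.54. The pooled counts of POGLUT1 and KLHDC7A, each with 1 nuclear tag, gave ratios of 49.2 (exact 95% interval 8.43 to 1980) and 43.3 (7.37 to 1747), counting error only. Both ratios were above that of SH2D4A, within wide intervals that overlap. ALYREF and SOX12 are among the strongest lone peaks, with 35.0 ± 4.22 and 269 ± 51.4 CPM for ALYREF (SD, n = 3 each, nuclear and cytoplasmic) and 20.6 ± 4.497 and 130 ± 14.7 CPM for SOX12.

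Of the 5 nuclear peaks, the 3 with the largest differences on the log2(value + pseudocount) scale carried a snoRNA term in their annotation. RPL13A and RPL23A encode proteins of the large ribosomal subunit and their introns are known to host snoRNAs, and TMEM107 (a protein of the ciliary transition zone) is known to share its 3' end with the U8 snoRNA gene. The tags of a host mRNA and of the snoRNA in it cannot be told apart at these peaks. The RPL13A peak (ENSG00000142541, chromosome 19, 49490008 to 49490028) had 56.8, 67.3 and 50.2 CPM in the nuclear and 6.38, 2.04 and 3.16 CPM in the cytoplasmic libraries. It was 15.1 times higher in the nucleus (log2 difference 3.35 ± 0.32, limma adjusted p = 0.000729), with no overlap.

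The RPL23A peak (ENSG00000198242, chromosome 17, 28723714 to 28723734) had 32.1, 21.8 and 26.1 CPM in the nuclear and 2.13, 2.04 and 5.27 CPM in the cytoplasmic libraries, a log2 difference of 2.45 ± 0.32 (limma adjusted p = 0.00381). The TMEM107 peak (ENSG00000179029, chromosome 17, 8173508 to 8173528) had 14.6, 11.8 and 14.5 CPM against 1.06, 2.04 and 1.05 CPM, a difference of 2.12 ± 0.29 (limma adjusted p = 0.0044). The fourth member with a snoRNA term, RPS2, had 11 tags in all and was not tested in mock cells. The other 2 nuclear peaks, TXNDC11 (a thioredoxin domain protein; 1.88 ± 0.32, limma adjusted p = 0.0144) and NPEPL1 (an aminopeptidase-like protein; 1.51 ± 0.34, limma adjusted p = 0.0477), carried an intron term and lay 42356 and 24118 nt before the end of the RefSeq gene. Ribosomal protein genes have many near-identical processed pseudogenes, so tags at their peaks are uncertain between copies.

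The calls were also split by position and by annotation. Among all lone peaks tested in mock cells 9.40% were lower and 0.588% higher in the nuclear fraction, and among all peaks 2.29% and 0.53%. Of the lone peaks within 500 nt of the gene end, 47 of 410 tested were lower and 0 higher in the nuclear fraction, with a median of -0.54. Farther from the end it was 32 lower and 5 higher of 424, with a median of -0.33. Where the annotation named the 3'UTR alone, 39 of 436 were lower and 0 higher. Where it also named an intron, 34 of 368 were lower and 4 higher.

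In 418 genes the lone peak and at least 1 intron peak of the same gene (2797 in all) were both tested in mock cells. The median log2 difference there was -0.43 for the lone peaks and 0.18 for the mean of the intron peaks. In 346 of the 418 genes (82.8%) the lone peak was the more cytoplasmic of the pair. The 246 tested members without any other peak in their gene had a median of -0.46, with 25 lower and 1 higher. Among all lone peaks tested 9.40% were lower and 0.588% higher, and among all peaks 2.29% and 0.53%.

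**Figure D2:**
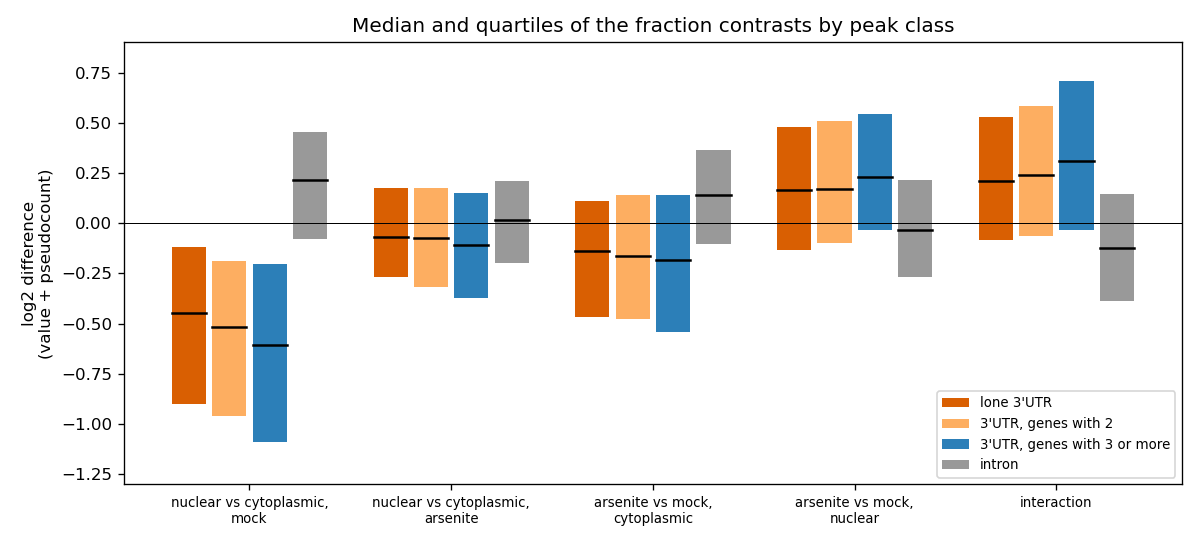
Median (line) and quartiles (box) of the log2 difference (vertical axis) in the 5 fraction contrasts (horizontal axis) for lone 3'UTR peaks, 3'UTR peaks of genes with 2 or with 3 or more, and intron peaks. In mock cells the lone peaks (median -0.45) lie below 0 and the intron peaks (median 0.21) above it, and both classes lie near 0 after arsenite.

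Under arsenite fewer lone peaks differed between the fractions. Of 1137 tested, 8 were lower and 4 higher in the nucleus (limma; 0.257% of all peaks tested were called, 0.147% lower and 0.11% higher), with a median of -0.07 over lone peaks and -0.01 over all peaks. The share called lower was 0.704% for lone peaks, 0.672% for the 3'UTR peaks of genes with 2 and 0.775% for those of genes with 3 or more. The lone-peak median was -0.22 with edgeR, -0.17 with the smaller and -0.02 with the larger pseudocount. In the lone peaks tested under both treatments, which share no library, the median absolute log2 difference was 0.64 in mock and 0.29 in arsenite cells. Of the 12 peaks called under arsenite 11 were also called in mock cells, all 11 in the same direction, which is 91.7% of the arsenite list and 12.9% of the mock list. The remaining one was RBM6 (limma adjusted p = 0.0566 in mock cells). Leaving out any 1 of the 6 libraries left 0 to 3 calls: 2 and 3 without nuclear library 1 and 2, 1 without cytoplasmic library 1, and 0 without nuclear library 3 or cytoplasmic library 2 or 3 (limma, 192, 194 and 178 at an unadjusted p under 0.05; edgeR on all libraries called 23, and 1549 of all peaks).

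KLHDC7A (ENSG00000179023, chromosome 1, 18485895 to 18485915) kept a wide gap, with 2.40, 1.60 and 1.73 CPM in the nuclear and 18.8, 21.6 and 20.2 CPM in the cytoplasmic arsenite libraries (log2 difference -2.42 ± 0.27, limma adjusted p = 0.000573). PSMB3 (a beta subunit of the proteasome; ENSG00000277791, chromosome 17, 38764198 to 38764218) had 11.2, 16 and 6.93 CPM against 57.8, 57.4 and 48.7 CPM (-2.11 ± 0.26, limma adjusted p = 0.00127). NLGN3 (a synaptic adhesion protein; ENSG00000196338, chromosome X, 71171085 to 71171105) had 4.804, 4.0 and 6.93 CPM against 20.2, 22.2 and 28.5 CPM (-1.79 ± 0.27, limma adjusted p = 0.00826). In each of the 3 peaks every cytoplasmic library was above every nuclear one, which the rule for naming them required.

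SNRPF, MIX23, UBE2M (a conjugating enzyme of the ubiquitin-like protein NEDD8), CKB and APEX1 were lower in the nucleus by 1.69, 1.56, 1.54, 1.27 and 1.01 on the log2 scale, with means of 0.533 and 6.61 CPM for SNRPF and 24.4 and 51.3 CPM for APEX1. APEX1 is the cell's own endonuclease of base excision repair and is not the APEX peroxidase of the labelled lines.

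The 3 snoRNA-annotated peaks stayed nuclear. RPL13A had 28.8, 14.4 and 27.7 CPM in the nuclear and 1.44, 1.14 and 2.09 CPM in the cytoplasmic arsenite libraries (2.71 ± 0.31, limma adjusted p = 0.000712). TMEM107 had 13.6, 8.80 and 15.6 CPM against 0.722, 0.568 and 1.39 CPM (2.21 ± 0.30, limma adjusted p = 0.00289). RPL23A had 12.8, 8.0 and 6.93 CPM against 0, 0.568 and 0.696 CPM (2.07 ± 0.30, limma adjusted p = 0.00579). The RBM6 peak (an RNA-binding splicing regulator) was also nuclear, with 13.8 ± 4.90 and 1.93 ± 0.435 CPM (SD, n = 3 each; 1.89 ± 0.30, limma adjusted p = 0.0135). In mock cells RBM6 had 9.39 ± 3.96 and 1.42 ± 1.63 CPM.

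**Figure D3:**
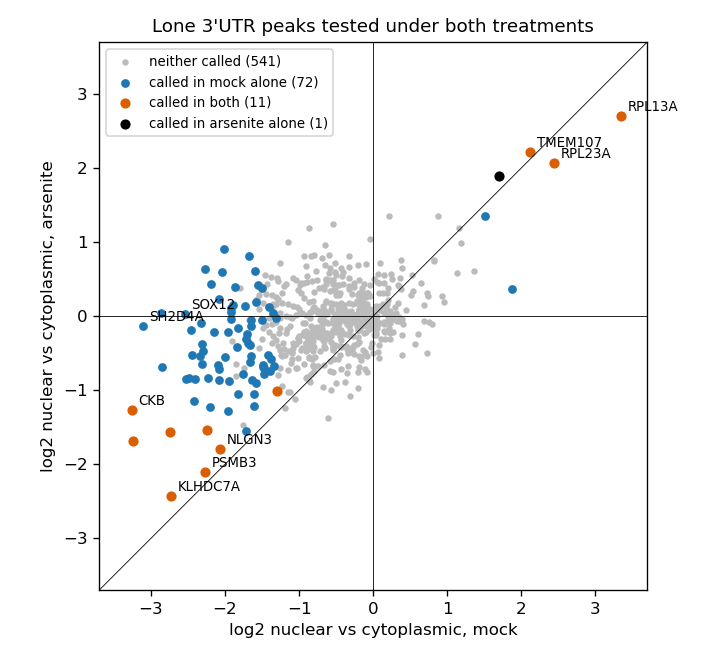
Log2 difference between nuclear and cytoplasmic fraction in mock cells (horizontal axis) and arsenite cells (vertical axis) for the lone 3'UTR peaks tested under both, coloured by limma call, with the line of equal values. The 11 peaks called in both lie on the same side, and many of the 72 called in mock alone lie nearer 0 under arsenite.

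Arsenite and mock cells were compared within each fraction to ask how the part of a library's tags in each peak differed with stress. In the cytoplasm 27 of 1200 tested lone peaks were lower and 0 higher after arsenite (limma; 0.76% of all peaks tested were called, 0.52% lower and 0.24% higher). The share called lower was 2.25% for lone peaks, 2.00% for the 3'UTR peaks of genes with 2 and 2.75% for those of genes with 3 or more. The median was -0.14 over lone peaks and 0.08 over all peaks. Scaling with TMM factors moved the medians to -0.04 and 0.20 and called 16 lone peaks lower and 4 higher. The lone-peak median was -0.57 with edgeR, -0.28 with the smaller and -0.05 with the larger pseudocount, -0.08 without the filter and -0.31 with the stricter one. The count was 7 without cytoplasmic mock library 1, 2 without mock library 3 and 0 without mock library 2 (limma, 288 at an unadjusted p under 0.05; edgeR on all libraries called 48, and 2800 of all peaks). It was 62, 70 and 71 without arsenite library 1, 2 and 3, and then 37, 39 and 45 of the calls were higher. In these fits the calls over all peaks went from 1473 to 15337, 16959 and 14659. With all libraries kept, higher calls also appeared in other fits: 10 with the smaller pseudocount, 9 with the stricter filter or with all 12 fraction libraries in 1 fit, 3 with edgeR, 2 with the tags in peaks as divisor and 1 with the replicate block.

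GSN was the strongest lone peak of the series. GSN encodes gelsolin, which severs and caps actin filaments, and its peak (ENSG00000148180, chromosome 9, 121332738 to 121332758) held 4700 tags. It had 703, 772 and 727 CPM in the cytoplasmic mock and 83.7, 105 and 82.1 CPM in the cytoplasmic arsenite libraries, with no overlap. It was 8.12 times lower after arsenite (log2 difference -3.00 ± 0.14, limma adjusted p = 0.000113).

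The CLSTN1 peak (calsyntenin 1, a membrane protein of vesicle transport; ENSG00000171603, chromosome 1, 9730072 to 9730092) had 81.9, 114 and 111 CPM in mock and 12.3, 14.8 and 10.4 CPM in arsenite cytoplasm (-2.82 ± 0.23, limma adjusted p = 0.0019). The TXN peak (thioredoxin, a reductase of protein disulfides; ENSG00000136810, chromosome 9, 110244074 to 110244094) had 40.4, 55.0 and 56.9 CPM and then 5.05, 12.5 and 2.09 CPM (-2.75 ± 0.40, limma adjusted p = 0.016). Neither overlapped between mock and arsenite.

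The other 5 of the largest 8 were SLC51B (a subunit of the basolateral bile acid transporter), ARID3B (an ARID domain DNA-binding protein), MGST3 (a microsomal glutathione transferase), SDC1 (syndecan 1, a cell surface proteoglycan) and EPHA2 (an ephrin receptor). Their log2 differences ran from -2.49 for SLC51B to -2.07 for EPHA2. SDC1, the second strongest lone peak, fell from 526.2 ± 66.3 to 116.5 ± 10.9 CPM (SD, n = 3 each), while in the nucleus it had 93.3 ± 11.95 CPM in mock and 102 ± 3.17 CPM in arsenite cells.

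In the nucleus the calls went the other way: 9 of 806 tested lone peaks were higher after arsenite and 1 was lower (limma; 0.186% of all peaks tested were called, 0.152% higher and 0.034% lower). The share called higher was 1.12% for lone peaks, 1.32% for the 3'UTR peaks of genes with 2 and 1.19% for those of genes with 3 or more. The median was 0.17 over lone peaks and 0.01 over all peaks, and over lone peaks 0.50 with edgeR, 0.27 with TMM scaling, 0.41 with the smaller and 0.05 with the larger pseudocount. No lone peak was called with TMM scaling (limma, 197 at an unadjusted p under 0.05), nor without nuclear mock library 1 or nuclear arsenite library 1 or 2 (191, 198 and 222 at an unadjusted p under 0.05, limma), whereas edgeR on all libraries called 18, and 755 of all peaks. The count was 3 and 5 without mock library 2 and 3, and 70 without arsenite library 3, where the calls over all peaks went from 372 to 8614.

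SH2D4A had 1.46, 0.909 and 0.966 CPM in the nuclear mock and 24.8, 15.2 and 15.6 CPM in the nuclear arsenite libraries. Its pooled ratio was 17.5 (exact 95% interval 5.74 to 87.0, counting error only) and its log2 difference 2.59 ± 0.30 (limma adjusted p = 0.00419). The MAZ peak (a zinc finger transcription factor; ENSG00000103495, chromosome 16, 29810676 to 29810696) had 10.2, 18.2 and 13.5 CPM and then 74.5, 68.8 and 70.2 CPM (2.20 ± 0.22, limma adjusted p = 0.00176). The PRCC peak (a nuclear protein found in a renal carcinoma gene fusion; ENSG00000143294, chromosome 1, 156800774 to 156800794) had 17.5, 18.2 and 17.4 CPM and then 92.1, 75.2 and 71.0 CPM (2.02 ± 0.19, limma adjusted p = 0.001). All arsenite values of these 3 peaks were above all mock values.

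TEF (a PAR bZIP transcription factor), REXO1 (an RNA exonuclease), CSK (a kinase that inhibits SRC family kinases), USP25 (a deubiquitinase) and SOX12 were higher by 1.79, 1.73, 1.63, 1.53 and 1.51. The 1 peak that was lower was GSN, with 141, 148 and 143 CPM in mock and 80.1, 82.4 and 89.2 CPM in arsenite nuclei (-0.77 ± 0.12, limma adjusted p = 0.0243), a far smaller gap than its cytoplasmic one.

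**Figure D4:**
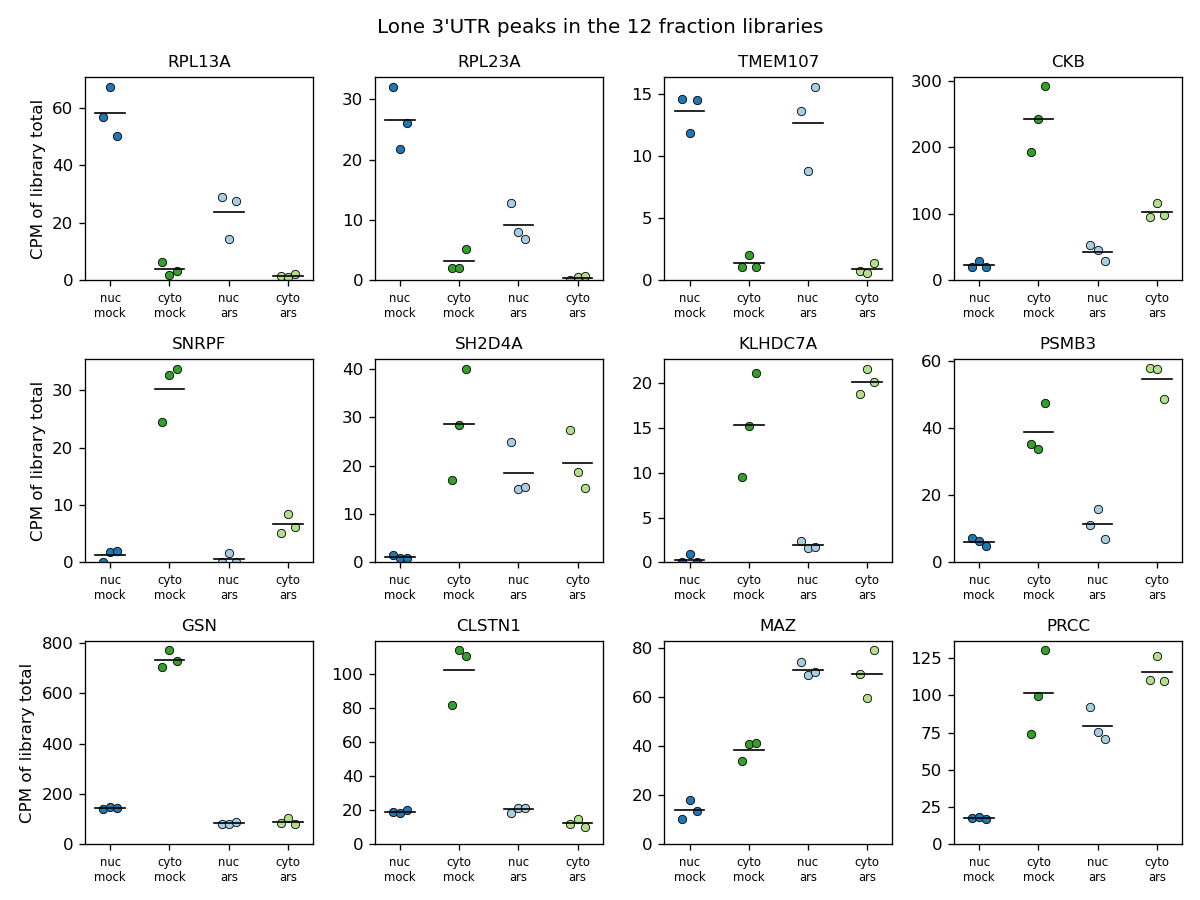
CPM of the library total (vertical axis, starting at 0) of 12 lone 3'UTR peaks in the nuclear and cytoplasmic fraction libraries of mock and arsenite (ars) cells, 1 point per library and a line at the mean of 3. GSN and CLSTN1 are high in the cytoplasmic mock libraries alone, SH2D4A, MAZ and PRCC are low in the nuclear mock libraries, and RPL13A, RPL23A and TMEM107 are nuclear under both treatments.

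Whether the effect of arsenite differed between the fractions was tested as an interaction over all 12 libraries, positive where the nuclear minus cytoplasmic difference was higher after arsenite. All 28 calls among 1693 tested lone peaks were positive (limma; 0.352% of all peaks tested were called, 0.318% positive and 0.0344% negative). The called share of lone peaks was 1.65%. It was 1.69% for the 3'UTR peaks of genes with 2 and 2.55% for those of genes with 3 or more, all positive as well. The median was 0.21 over lone peaks and -0.08 over all peaks, and over lone peaks 1.08 with edgeR, 0.96 with the stricter filter, 0.49 with the smaller and 0.07 with the larger pseudocount. Within the 1102 genes that also had tested intron peaks, the lone peak was above the mean of its intron peaks in 796. The count lay between 13 and 27 when 1 library was left out. It was 18 without nuclear mock library 1 or 2, 16, 17 and 16 without nuclear arsenite library 1, 2 and 3, 16 without cytoplasmic mock library 2, and 17, 13 and 17 without cytoplasmic arsenite library 1, 2 and 3.

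The 4 largest reached their interaction in different ways. SH2D4A (2.99 ± 0.52, limma adjusted p = 5.92e-05) rose in the nucleus and had 20.5 ± 6.25 CPM in arsenite against 28.5 ± 11.5 CPM in mock cytoplasm (SD, n = 3 each). CLSTN1 (2.91 ± 0.39, limma adjusted p = 1.99e-08) fell in the cytoplasm and had 20.6 ± 1.85 against 19.1 ± 1.06 CPM in the nucleus. AUTS2 (a transcriptional regulator; 2.94 ± 0.53, limma adjusted p = 0.000151) had 10.5 ± 1.04 CPM in mock and 1.28 ± 0.524 CPM in arsenite cytoplasm, and 0.947 ± 0.966 and 4.73 ± 2.77 CPM in the nucleus. POGLUT1 (2.90 ± 0.55, limma adjusted p = 0.000385) had 17.3 ± 6.83 and 4.32 ± 1.33 CPM in the cytoplasm, and 0.322 ± 0.557 and 4.62 ± 2.24 CPM in the nucleus.

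By gene family, the solute carriers had the most calls among the lists in number. Relative to the peaks tested, the proteasome genes had more in mock cells (3 of 6). In mock cells 6 of 23 tested solute carrier peaks were lower in the nucleus and 0 higher (median -0.64, against -0.45 over all lone peaks). Of all lone peaks tested 9.40% were lower, and of all peaks 2.29%. SLC19A1 (the reduced folate carrier) had 16.4 ± 1.68 CPM in the nuclear and 70.4 ± 22.0 CPM in the cytoplasmic libraries (SD, n = 3 each; -1.92 ± 0.26, limma adjusted p = 0.00422). SLC46A1 (the proton-coupled folate transporter) had 9.47 ± 0.650 and 31.0 ± 2.29 CPM (-1.5002 ± 0.24, limma adjusted p = 0.0109). SLC2A1 (the glucose transporter GLUT1) and SLC7A10 (a neutral amino acid transporter) differed by -1.59 and -1.64. After arsenite 2 of 28 tested solute carrier peaks were lower in the cytoplasm and none was higher, beside 2.25% of lone peaks and 0.52% of all peaks lower. Between the fractions after arsenite none of 28 was called.

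For the proteasome genes, in mock cells 3 of 6 were lower in the nucleus, and all 6 differences were negative (median -1.26). Of all lone peaks tested there 9.40% were lower in the nucleus, and of all peaks 2.29%. PSMB3 had 6.16 ± 1.24 and 38.7 ± 7.60 CPM in the nuclear and cytoplasmic libraries (SD, n = 3 each). PSMD3 (a regulatory particle subunit) had no tag in the 3 nuclear mock libraries and 4.25, 5.09 and 5.27 CPM in the cytoplasmic ones, at least 1.46-fold higher (floor of 3 tags per library, limma adjusted p = 0.0126). PSMD3 met the filter through its cytoplasmic libraries alone, so its call is a description. PSMB1 (a beta subunit) differed by -1.38. After arsenite 1 of 6 was lower in the nucleus, with 5 of 6 differences negative (median -0.51), beside 0.704% of lone peaks and 0.147% of all peaks called lower. Between arsenite and mock cytoplasm none of 6 was called, with 2 negative and a median of 0.16.

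Of 21 ribosomal protein genes tested in mock cells, 2 were higher and 2 lower in the nucleus (median -0.26). The 2 higher ones were RPL13A and RPL23A, whose peaks carry the snoRNA term. Of all lone peaks tested 0.588% were higher and 9.40% lower. RPL5 (a 60S subunit protein) had 0.322 ± 0.557 and 8.02 ± 1.28 CPM (SD, n = 3 each; -1.997 ± 0.30, limma adjusted p = 0.00758). RPLP0 (a protein of the ribosomal stalk) had no tag in the nuclear mock libraries and 4.25, 2.04 and 5.27 CPM in the cytoplasmic ones, at least 1.16-fold higher (floor of 3 tags per library, limma adjusted p = 0.0464). RPLP0 met the filter through its cytoplasmic libraries alone, so its call is a description.

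Single members were called in other lists in mock cells: 1 of 9 oxidative phosphorylation genes (UQCRH of complex III, -1.47), 1 of 4 splicing factors (SNRPF), 1 of 26 zinc finger genes (ZFP90, -1.56) and 2 of 16 ubiquitin enzymes (UBE2M, -2.24, and USP25, -1.59), all lower in the nucleus. These counts stand beside 9.99% called among all lone peaks tested and 2.82% among all peaks. No member of the lists of mitochondrial ribosomal proteins, translation factors, RAB GTPases, chaperones, hepatocyte plasma proteins, stress granule proteins, integrated stress response genes or known HuR targets was called in those of the 4 fraction tests and the interaction that could test one. Of these, 1 to 7 members per list were tested in mock cells, and between the fractions after arsenite no stress granule gene and no known HuR target could be tested.

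The peroxidase lines asked the same questions with proximity capture, at far lower depth. Of the lone peaks, 6 to 25 could be tested per contrast of enriched libraries and 125 in the contrast of inputs, and limma called 0 in each of the 8 contrasts. The percentage of all peaks called was 0.491 for G3BP against NES enriched libraries after arsenite and 0 in the other 7. At an unadjusted p under 0.05 limma had 9 of 19 lone peaks in that contrast, 7 of 25 for arsenite against mock in G3BP enriched libraries and 23 of 125 in the inputs. It had 2 of 21 for NLS against NES after arsenite, 1 of 20 and 1 of 8 for arsenite against mock in NLS and NES enriched libraries, and none in the 2 other mock contrasts. The edgeR test called 8, 1 and 10 lone peaks in the first 3 of these contrasts and 0 in the other 5. Over all peaks tested edgeR called 135 of 1223, 47 of 1505 and 471 of 17091 in those 3.

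The median log2 difference of G3BP against NES enriched libraries after arsenite was 1.64 over 19 lone peaks and 0.83 over all peaks tested. For arsenite against mock it was 1.46 over 25 lone peaks and 0.95 over all peaks in G3BP enriched libraries, and 0.40 over 125 lone peaks and 0.17 over all peaks in the inputs. In the 5 other contrasts of enriched libraries, with 6 to 21 lone peaks each, the lone-peak median changed sign between settings and has no direction. For NLS against NES in mock cells (6 lone peaks) it was 0.40, but -0.15 with edgeR and -0.997 within library set JL0388. For G3BP against NES in mock cells (7 lone peaks) it was 0.56, but -0.42 without G3BP replicate 5 and -0.996 within set JL0388. Several of these contrasts share libraries. The first 3 lone-peak medians moved with the processing. Without the filter, which admitted 382, 771 and 1829 lone peaks, they were 0.64, 0.11 and 0.06. With the larger pseudocount they were 1.35, 0.78 and 0.17, and with the tags in peaks as divisor 1.13, 1.11 and 0.36. The median of G3BP against NES after arsenite was also 2.99 with edgeR, and 1.48 and 1.08 within library sets JL0388 and JL1024.

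The strongest lone peaks show the depth behind these contrasts, in which 3 tags per library correspond on average to 225.4 CPM in G3BP enriched mock and 64.3 CPM in G3BP enriched arsenite libraries. GSN had 0 to 205 CPM (median 93.1, 6 libraries) in G3BP enriched mock and 51.2 to 179 CPM (median 124, 7 libraries) in G3BP enriched arsenite libraries, on 164 and 134 tags. In NES enriched libraries it had 0 to 79.3 CPM on 4 tags in mock and 4.14 to 105 CPM on 29 tags after arsenite, 4 libraries each. In NLS enriched libraries it had 1.89 to 23.0 CPM in mock and 0 to 23.2 CPM after arsenite. The G3BP groups overlapped, and the nuclear line had the lowest maximum.

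SDC1 had 0 to 46.3 CPM (median 4.49) in G3BP enriched mock and 8.54 to 304 CPM (median 107) in G3BP enriched arsenite libraries, with tags in 3 of 6 and 7 of 7 libraries. ALYREF had medians of 0 and 34.2 CPM there, with tags in 2 of 6 and 6 of 7 libraries. CKB had medians of 3.31 and 6.62 CPM, PRCC 8.82 and 26.7 CPM and SOX12 6.61 and 8.54 CPM, and all 5 ranges overlapped between mock and arsenite.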

How the data were processed

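The authors deposited 1 table of signal per peak and library. Per the submitters' processing notes, Bowtie2, SAMtools, bedtools and HOMER were used with build GRCh38.p14, and their versions and roles are not given in the sources used here. From the values, each signal is a tag count divided by a library total of 4662 to 2622677: whole tags were recovered for 100% of the non-zero values (within 0.02 of a whole number). Whether duplicate reads were removed is not given, so intervals and floors (3 tags) cover counting error only.

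Peaks of the whole table were tested with limma 3.58.1 (R 4.3.3; lmFit, eBayes with trend) on log2(value + 2.283806e-06), two-sided, where the number of libraries with a tag reached the size of the smaller group, with Benjamini-Hochberg adjustment over all peaks tested at 0.05. A peak could meet this filter through the group where it was high alone. Library set was a covariate in the peroxidase contrasts. G3BP and NES libraries were compared over the library sets that hold both. Alternatives were edgeR 4.0.16 on recovered tags, other pseudocounts, scalings, filters and sample sets. The scripts were tested on simulated data with 200 planted changes. Of 4-fold changes limma found 8 and 75 between the fractions (mock, arsenite) and 14 and 34 for arsenite in cytoplasm and nucleus. Of 16-fold changes it found 192, 197, 192 and 196 in the same order. A lack of calls therefore does not show a lack of smaller differences.

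Over the 500 highest peaks, 5 replicate pairs of enriched libraries in JL0388 did not differ significantly beyond sampling noise (NLS mock 1 and 2, NLS arsenite 1 and 2, NES arsenite 1 and 2, G3BP mock 3 and 4, G3BP arsenite 4 and 5). Each counts as 1 sample where a group mean with SD is given, and the tests kept every library.

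The members, gene lists and rules were chosen with earlier results of these data known. Named peaks are those with the largest differences among called, non-overlapping lone peaks (8 per direction in the fraction tests, 4 in the interaction), the 6 strongest, and up to 4 called members per gene list. MSH5, SEC24C, AMDHD2 and RPS2 are named for their sequence or annotation, and list members outside the tests were named after their list counts were seen. Tables were handled with pandas 2.3.3 and numpy 2.4.6 under Python 3.11.15, intervals computed with scipy 1.17.1 and plots drawn with matplotlib 3.10.9.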

Additional observations from a re-analysis of the deposited data

Results flagged for a closer look

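The effect of arsenite differed between the nuclear and the cytoplasmic fraction at 28 lone 3'UTR peaks by the limma interaction test. The called share was 1.65%, beside 0.352% of all peaks tested. It was 1.69% and 2.55% for the 3'UTR peaks of genes with 2 and with 3 or more. The 4 largest differences of this kind were at SH2D4A (log2 2.99), AUTS2 (2.94), CLSTN1 (2.91) and POGLUT1 (2.90). All 4 had an adjusted p under 0.05 in every alternative fit that gave them a value. The fraction groups hold 3 libraries each, too few to check for a library that stands apart.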

How the results depend on the processing

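The counts of called lone peaks depended on the processing. None of the 58 named differences changed sign in any of 508 fits other than leave-one-out, where 464 kept their call, or in 372 leave-one-out fits, where 147 did. They were named for being called and mostly for being the largest, so their kept direction follows largely from that choice. It does not speak for the other lone peaks. Under every fit other than leave-one-out 37 kept their call. The others lost it in at least 1 such fit: NPEPL1, RPLP0, UQCRH, PSMB1, ZFP90 and SLC7A10 between fractions in mock cells, RPL23A, RBM6, SNRPF, UBE2M, CKB and APEX1 between fractions after arsenite, and all 9 named for arsenite in the nucleus. In mock cells nuclear against cytoplasmic calls were 133 with TMM scaling and 228 with all 12 fraction libraries in 1 fit. Under arsenite they were 6 with TMM, 24 without the filter, 26 with the stricter filter and 23 with edgeR. Arsenite against mock gave 49 with the smaller pseudocount, 80 with the stricter filter, 48 with edgeR and 81 with all 12 libraries in the cytoplasm. In the nucleus it gave 4, 36, 18 and 39, with 21 without the filter and 0 with TMM (197 at an unadjusted p under 0.05, limma). The interaction gave 18 with TMM and 62 with the stricter filter. The TMM split in the cytoplasm was 4 higher and 16 lower. When 1 library was left out, the counts ran from 0 to 98, 0 to 3, 0 to 71, 0 to 70 and 13 to 27 in these 5 tests, from 0 to 1 for NLS against NES enriched mock (1 without NLS library 3), and were 0 in the other 7.

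With the replicate number as a block, 86, 12, 41, 12 and 31 lone peaks were called in the 5 fraction tests. Correlations of same-numbered libraries lay between -0.0416 and 0.202 and were over 0.1 in every pair in the input contrast alone, which has 2 pairs, so the numbers were not taken to pair libraries.

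In the peroxidase contrasts, fits within a library set compared 2 libraries with 2, or 2 with 3 in JL0361. They gave 2 (JL0388) and 14 (JL1024) calls for NLS against NES mock, 3 (JL0388) for G3BP against NES mock and 12 (JL1024) after arsenite, 1 (JL0388) and 6 (JL1024) for arsenite in NES, and 19 (JL0388) in G3BP enriched libraries. In each fit within JL0388 at least 1 group was a pair that counts as 1 sample, so its spread may be sampling noise alone. NLS against NES after arsenite gave 1 with the smaller pseudocount, the tags-in-peaks divisor or TMM. G3BP against NES after arsenite gave 2 with the smaller and 1 with the larger pseudocount, 2 with TMM, 1 with the stricter filter and 8 with edgeR. Arsenite in G3BP enriched libraries gave 1 without the filter and 1 with edgeR, and in the inputs edgeR gave 10. The cause of these changes was not tested.

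The log2 ratios of mean lone shares, -1.63 and -0.21 for nuclear against cytoplasmic (mock, arsenite), -0.88 in the cytoplasm and 0.53 in the nucleus for arsenite, kept their direction. Over genes with no other peak they were -1.81, -0.32, -0.70 and 0.79. Without the 20 peaks with most tags those of nuclear against cytoplasmic mock and of arsenite in the cytoplasm were -1.25 and -0.65. Leave-one-out gave -1.71 to -1.59, -0.26 to -0.18, -0.96 to -0.84 and 0.49 to 0.56. With the main filter and all libraries, at most 25 lone peaks could be tested per contrast of enriched libraries, and 771 without the filter in the arsenite contrast of G3BP enriched libraries.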
